A study of Mus musculus with 16 samples.

Results

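The genes described here are 40 genes of DNA replication, picked by name from the 54532 genes of a count table. They cover origin licensing (5 genes), the MCM helicase (6), helicase activation (6), primase and polymerases (6), the sliding clamp and its loader (5), Okazaki fragment joining (2), single-strand binding (2), chromatin assembly and copying of methylation (3), and a set of 5 genes for fork checkpoint, protein turnover and repair. Each of the 40 names matched 1 row, and all 40 passed the filter on low counts in every comparison. The list was drawn up with earlier results of these data known, so its choice cannot be taken as independent of them.

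The study asked how prostaglandin E2 (PGE2), a lipid mediator that tumours can release, acts on antigen-experienced TCF1+CD8+ T cells. Naive CD8 T cells from C57BL/6J mouse spleen had been activated repeatedly over 4 days in culture, a procedure that all 16 samples share. Cells were then left without PGE2 or given 100 ng/ml PGE2 for 1 h, followed by 4 h in 85 U/ml IL-2 with or without aCD3/CD28 beads at 1 bead per cell. This gave 4 groups of 4 samples: unstimulated control (IL-2 alone), unstimulated PGE2 (PGE2, then IL-2), stimulated control (IL-2 and beads) and stimulated PGE2 (PGE2, then IL-2 and beads). "Unstimulated" therefore means without beads, not without cytokine, and the cells are a culture model rather than T cells taken from tumours. The labels do not say whether replicates came from separate mice or cultures, so p-values measure the spread between these samples, which may be technical.

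Before S phase the origin recognition complex, CDC6 and CDT1 load the MCM2 to MCM7 ring on DNA, and geminin blocks further loading. CDC45 and the GINS complex turn the loaded ring into a moving helicase, primase and polymerase alpha lay primers, and polymerases delta and epsilon extend them while held by the PCNA clamp. Many of these genes are transcribed in a wave before and during S phase under E2F factors, and activated T cells divide quickly, so cultures of such cells carry high levels of these transcripts. In bulk RNA, fewer cells in S phase and less transcript per cell cannot be told apart.

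E2F factors bind short GC-rich words, and the bases before the members' starts were searched for the words TTTCCCGC, TTTCGCGC, TTTGCCGC and TTTGGCGC on both strands. RefSeq windows of GRCm38.p6 were matched for 30 of the 40 members. In the 250 bases before the start, 10 of these 30 members (33.3%) held such a word, against 2.16% of 27025 genes with windows of the same length. The 10 were Cdc6, Dtl, Gins3, Mcm5, Mcm6, Mcm7, Orc1, Pola1, Rfc3 and Uhrf1. For Mcm5, Mcm6 and Mcm7, the bases after the RefSeq start of the window with the word were not found near an annotated transcript start. Another Mcm7 window passed this check and held no such word. The CCAAT box, written CCAAT, was found in 66.7% of matched members and 37.5% of all genes. The word TGACGTCA (cAMP response element, the site of CREB factors) was held by 2 of the 30 matched members (6.67%), Dtl and Mcm5. The word CACGTG (an E-box) was held by 4 (13.3%). The shares of all genes with windows, expressed or not, were 1.77% and 6.86%. A match is a description of letters and shows no binding. Of matched members called lower after PGE2 (adjusted p below 0.05, edgeR), 2 of 9 held an E2F word in stimulated and 6 of 15 in unstimulated cells. Of those not called, 8 of 21 and 4 of 15 held one. Shown here are stretches without annotated exons for 2 members that hold a word (in capitals) and for 2 members with large PGE2 differences, Mcm2 and Ung, that hold none. Orc1, also called lower after PGE2 in both states, does hold a word. The Cdc6 stretch is chr11:98907982-98908150 on the plus strand, the Dtl stretch chr1:191575545-191575635 on the minus strand, and both end at the base before the RefSeq start. The Mcm2 stretch, chr6:88898781-88899030 on the minus strand, also ends there. The Ung stretch, chr5:114130185-114130385 on the plus strand, ends 50 bases before its RefSeq start. The RefSeq start used for Cdc6 lies inside the gene's span as annotated for the counts, which begins at base 98907801. The Cdc6 stretch and its word therefore lie within that span, and the RefSeq starts of some other members also lie inside their spans. All printed stretches are written from 5′ to 3′ on the gene's strand. GCGGGAAA is TTTCCCGC read from the other strand.
Cdc6: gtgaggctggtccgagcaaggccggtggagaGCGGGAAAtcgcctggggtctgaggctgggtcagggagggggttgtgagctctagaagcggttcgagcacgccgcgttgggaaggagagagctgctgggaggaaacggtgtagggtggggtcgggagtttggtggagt
Dtl: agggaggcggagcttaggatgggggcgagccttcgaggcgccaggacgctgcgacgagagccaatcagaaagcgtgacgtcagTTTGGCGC
Mcm2: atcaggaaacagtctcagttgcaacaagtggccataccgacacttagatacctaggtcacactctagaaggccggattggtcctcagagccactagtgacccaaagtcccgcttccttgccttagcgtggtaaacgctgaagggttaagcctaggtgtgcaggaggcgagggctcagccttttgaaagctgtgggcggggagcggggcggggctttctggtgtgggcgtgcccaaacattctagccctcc
Ung: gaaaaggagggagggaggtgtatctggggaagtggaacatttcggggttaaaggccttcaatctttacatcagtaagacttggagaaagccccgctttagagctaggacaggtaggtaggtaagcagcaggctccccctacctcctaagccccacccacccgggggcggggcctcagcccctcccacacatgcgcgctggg

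Total counts per sample ranged from 22678254 to 42950763. Markers of CD8 T cells, Tcf7 among them, summed to between 2853 and 4836 CPM (counts per 1000000 counts of the sample, with TMM scaling, as are all CPM values here) over the 16 samples. Their sum was lower with beads, at 3127 to 3337 CPM in stimulated control against 3793 to 4836 CPM in unstimulated control, and lower with PGE2 in stimulated cells, at 2853 to 3074 CPM, while the ranges with and without PGE2 overlapped in unstimulated cells. Its part in the results was not tested. Markers of B cells summed to at most 20.3 CPM, those of myeloid cells to at most 6.57 and those of CD4 T cells to at most 9.52. The NK marker Ncr1 and the erythroid marker Hbb-bs were at 0 in all 16 samples.

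Transcripts of all 40 replication genes were present in cells on IL-2 alone, over a wide range of levels. Per length of transcript, in the FPKM values deposited by the authors, the median member stood at 19.4 FPKM in unstimulated control cells, and 26 of 40 members exceeded 10 FPKM. Pcna, the sliding clamp, was highest at 181 FPKM, and the 6 subunits of the MCM ring lay between 27.2 and 82.1 FPKM. The 4 GINS subunits lay lower, between 5.28 and 31.8 FPKM. At the bottom of the order were Orc1 (4.28 FPKM), Ung (4.07), Exo1 (3.38) and Fen1 (3.20). The member median was 17.2 FPKM in unstimulated PGE2 cells, 14.4 in stimulated control cells and 12.9 in stimulated PGE2 cells. Counts behind a member in a sample ran from 155 for Fen1 to 16570 for Pcna.

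**Figure D1:**
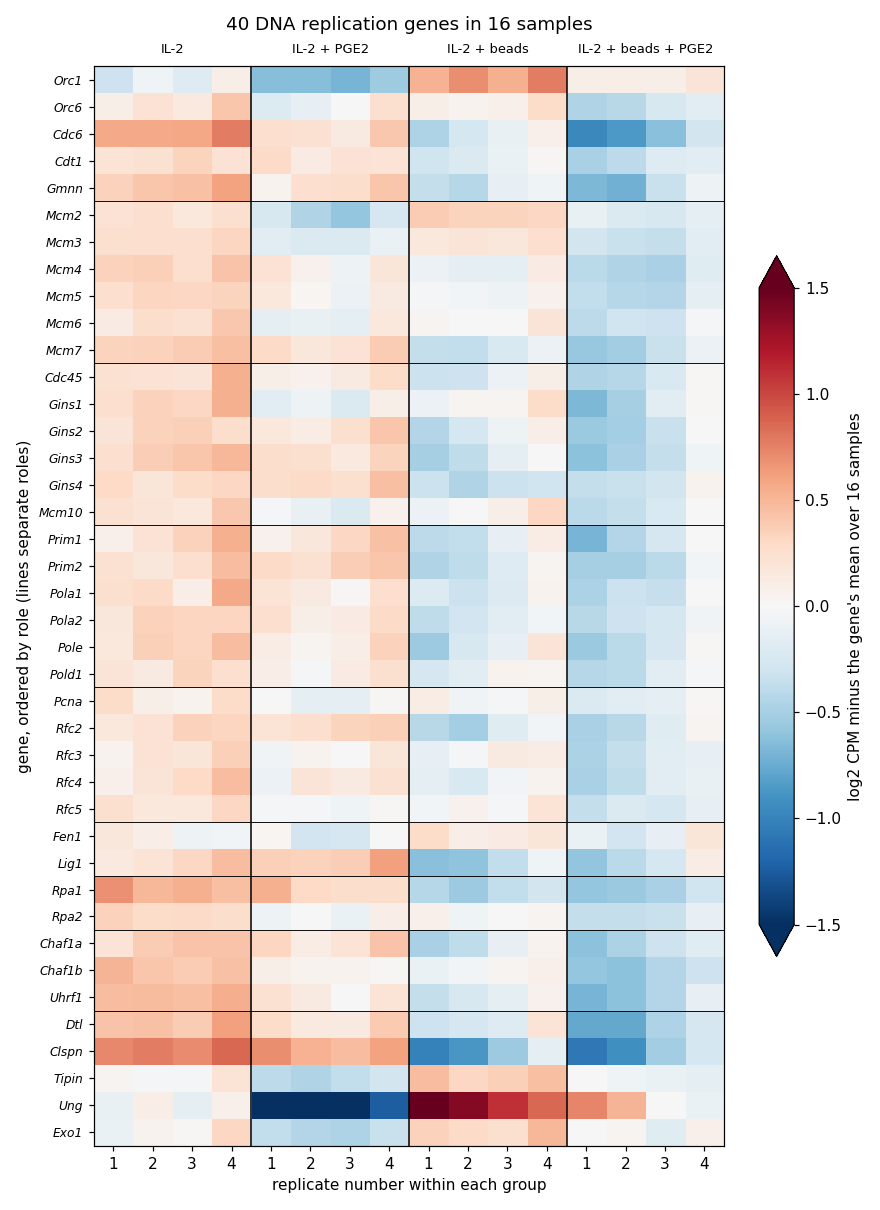
Levels of the 40 members (rows, by role) in the 16 samples (columns, by group and replicate number), as log2 CPM minus the gene's mean over the 16 samples; colours end at 1.5 in either direction. Most rows are palest or blue in the groups with beads, and Ung, Orc1, Tipin and Exo1 run the other way.

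Replicate 4 held the highest level of most members in every group: 28 of 40 in unstimulated control, 31 in unstimulated PGE2, 32 in stimulated control and 37 in stimulated PGE2. Ung was an exception in the bead-stimulated groups, where replicate 4 held its lowest value. The coefficient of variation between replicates had a median over members of 7.23% in unstimulated control, 7.18% in unstimulated PGE2, 10.1% in stimulated control and 13.5% in stimulated PGE2. In the PGE2 comparisons and in stimulation without PGE2, same-numbered samples deviated together, and the calls of a fit with the replicate number as a block (blocked fit) are therefore given beside the others. Counts, fold changes and adjusted p without that name come from the fit without the block. Without replicate 4 of each group, an alternative chosen after seeing the data, the counts of members called are given with each comparison.

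The first comparison asked what PGE2 did to replication transcripts in bead-stimulated cells. The level of 11 of 40 members fell and none rose, and the falls were moderate, to between 53.3% and 82.2% of the control level. They included 3 subunits of the MCM ring (Mcm2, Mcm3, Mcm5), the origin recognition subunits Orc1 and Orc6, the clamp loader subunit Rfc5, the single-strand binding subunit Rpa2, the chromatin assembly subunit Chaf1b, and Tipin, Ung and Exo1. No primase or polymerase gene was called without the block. By edgeR's quasi-likelihood test with Benjamini-Hochberg adjustment over all 13922 genes tested, 3.80% of genes were lower and 6.04% higher, against 27.5% and 0% of members. The median log2 fold change was −0.22 over members and −0.01 over all genes, and 37 of 40 members had a negative value. None of the 40 reached a 2-fold change, as 1.75% of all genes did. In the blocked fit 27 members were called, 26 lower and Lig1 higher, where 39.8% of all genes were called. Beside the 11 and Lig1, it called Cdc6, Cdt1, Gmnn, Mcm4, Mcm6, Gins1, Mcm10, Prim1, Pold1, Pcna, Rfc3, Rfc4, Chaf1a, Uhrf1 and Dtl lower. Without replicate 4 of each group 12 were lower, where 915 of 14077 genes were called in either direction. The number of called members was 6 without stimulated control replicate 1 or 2 or stimulated PGE2 replicate 3, and 7 without stimulated control replicate 4 or stimulated PGE2 replicate 2. Over all genes, 1370 were called with every library, 760 and 630 without stimulated control replicate 1 and 2, and 630 without stimulated PGE2 replicate 3. Without stimulated control replicate 4 the number over all genes was 1323, and without stimulated PGE2 replicate 2 it was 949. The member median was −0.32 without stimulated PGE2 replicate 4.

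Ung encodes the uracil-DNA glycosylase that removes uracil from DNA (chr5:114130386-114139323, plus strand). Its level was 67.9, 61.7, 50.6 and 43.0 CPM in stimulated control replicates 1 to 4 and 39.2, 33.6, 23.7 and 22.0 CPM in stimulated PGE2 replicates 1 to 4. Every PGE2 sample lay below every control sample, and in each pair of equal number the PGE2 sample was the lower. The log2 fold change was −0.91 (SE 0.20, adjusted p = 0.0196, edgeR), and it lost its call when stimulated control replicate 1 (adjusted p = 0.0612), stimulated control replicate 2 (0.0672) or stimulated PGE2 replicate 3 (0.0651) was left out.

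Mcm2, a subunit of the helicase ring, stood at 222, 215, 215 and 213 CPM in stimulated control samples and at 158, 147, 145 and 156 CPM in stimulated PGE2 samples. The groups were far apart relative to their spread, with a log2 fold change of −0.51 (SE 0.058, adjusted p = 0.000772, edgeR). Orc1, the largest subunit of the origin recognition complex, stood at 24.3, 27.4, 24.5 and 28.8 CPM in control samples and 18.1, 18.1, 18.0 and 19.3 CPM in PGE2 samples. The groups did not overlap, and the log2 fold change was −0.51 (SE 0.083, adjusted p = 0.00496, edgeR). Of the Orc1 exon bases, 10.8% lie opposite exons of Gm12743, and use of strand in the counting is not stated. Chaf1b, a subunit of the factor that places histones on new DNA, stood at 31.5, 32.9, 34.9 and 35.5 CPM in control samples and 22.6, 22.1, 24.8 and 27.3 CPM in PGE2 samples. Here too the ranges were apart, with a log2 fold change of −0.47 (SE 0.087, adjusted p = 0.00884, edgeR). All 3 kept their call when any of the 8 libraries was left out.

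Among the other called members Mcm3 fell by 0.47 on the log2 scale, the fork protection factor Tipin by 0.46, Orc6 by 0.43, the exonuclease Exo1 by 0.35, Mcm5 by 0.31, Rpa2 by 0.30 and Rfc5 by 0.28. Mcm4 and Mcm6 had values of −0.31 and −0.30 with groups that did not overlap and missed the threshold without the block (adjusted p = 0.0571 and 0.0640, edgeR) but not with it (0.000172 and 0.000442). Mcm7 stood at −0.10. The loading factor Cdc6 had −0.47 and the ubiquitin ligase subunit Dtl −0.41, both with overlapping groups (adjusted p = 0.0913 and 0.103), and both were called in the blocked fit. The 6 primase and polymerase genes lay between −0.16 and −0.04. All 6 were lower with PGE2 in each of the 4 pairs of equal number, as were 34 of the 40 members. The share of all genes that were so was not counted. Of the 6, the blocked fit called Prim1 and Pold1 (adjusted p = 0.0379 and 0.0121, edgeR). Members with positive values were Lig1, the ligase that seals Okazaki fragments (0.14), Gins4 (0.14) and Rfc2 (0.04).

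In unstimulated cells 19 of 40 members fell after PGE2 and none rose. They comprised 5 of 6 MCM subunits (all but Mcm7), both Orc1 and Cdc6, the helicase activators Gins1 and Mcm10, the clamp gene Pcna with Rfc5, Rpa2, Chaf1b with the methylation reader Uhrf1, and the 5 genes for fork checkpoint, turnover and repair. Of these 5, Dtl and Clspn lost their call with DESeq2 (adjusted p = 0.0659 and 0.0641), which called 17 members and 4412 of 26421 genes. No primase or polymerase gene was called without the block, and the blocked fit called Pola1 and Pole lower (adjusted p = 0.0199 and 0.00443, edgeR). Over the 14505 genes tested, 15.5% were lower and 12.9% higher, against 47.5% and 0% of members (edgeR). The median log2 fold change was −0.18 over members and 0.00 over all genes. Ung alone passed a 2-fold change, as 3.38% of all genes did. The blocked fit called 28 members, 27 lower and Lig1 higher, where 47.8% of all genes were called. Those it added as lower were Orc6, Gmnn, Mcm7, Cdc45, Pola1, Pole, Rfc3 and Rpa1. Without replicate 4 of each group 18 were lower, where 3637 of 14435 genes were called in either direction.

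Ung stood at 22.0, 25.4, 21.3 and 24.9 CPM in unstimulated control samples and at 7.52, 8.42, 8.18 and 10.03 CPM in unstimulated PGE2 samples. The PGE2 samples were all far below the controls, at 37.1% of their level in the fit (log2 fold change −1.43, SE 0.108, adjusted p = 6.64e-06, edgeR). Mcm2 stood at 198, 204, 191 and 202 CPM in control samples and at 145, 125, 115 and 144 CPM in PGE2 samples. The groups were apart, with a log2 fold change of −0.57 (SE 0.071, adjusted p = 0.000155). Orc1 stood at 13.6, 16.2, 14.8 and 18.0 CPM in control samples and at 10.9, 10.9, 10.5 and 11.7 CPM in PGE2 samples. All controls were higher, and the log2 fold change was −0.49 (SE 0.099, adjusted p = 0.00346). Exo1 stood at 26.5, 29.3, 28.7 and 35.1 CPM in control samples and at 21.9, 20.9, 20.5 and 22.5 CPM in PGE2 samples. Again the ranges did not meet, and the log2 fold change was −0.46 (SE 0.088, adjusted p = 0.00235). These 4 kept their call with any of the 8 libraries left out.

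The remaining called members ranged from Gins1, a GINS subunit at −0.43, through Mcm3 (−0.42), Tipin (−0.40), Chaf1b (−0.36), Cdc6 (−0.34), Uhrf1 (−0.32), Mcm6, Mcm10 and Rpa2 (each −0.29), Mcm5 (−0.23), Mcm4, Pcna and Rfc5 (each −0.22), to Dtl (−0.21) and the checkpoint mediator Clspn at −0.18. Dtl sat at the threshold (adjusted p = 0.04999, edgeR). Without unstimulated PGE2 replicate 2 the number of called members was 12, where 3166 of 14687 genes were called against 4122 of 14505 with every library. The 21 members not called lay between −0.21 for Orc6 and 0.16 for Lig1.

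**Figure D2:**
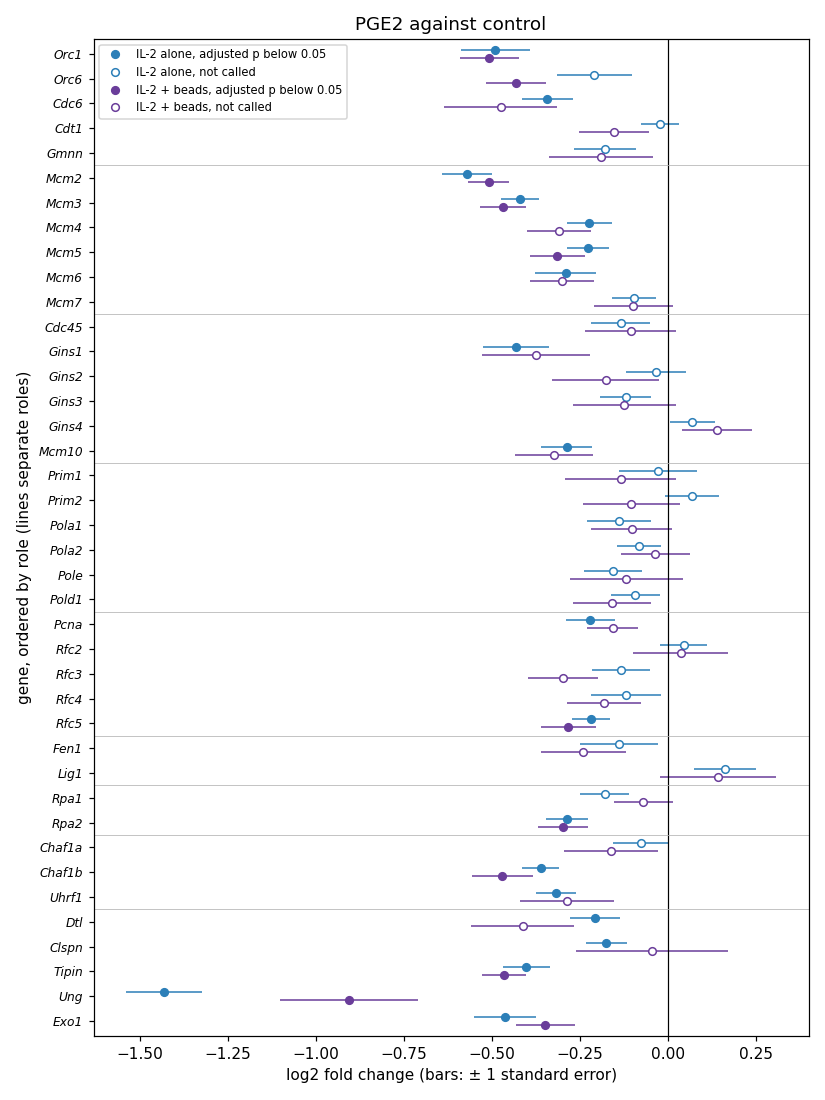
Log2 fold change of PGE2 over control for each member (vertical axis, by role) in cells on IL-2 alone (blue) and with beads (purple), with bars of 1 standard error. Filled points have adjusted p below 0.05 in the fit without the replicate block and all lie below 0, whereas primase and polymerase genes are open in both states; Ung lies farthest left at −1.43 and −0.91.

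Set side by side, the comparisons of PGE2 with control in the 2 states share no samples. Of the 11 members called lower in stimulated cells, 10 (90.9%) were also called lower in unstimulated cells, which is 52.6% of the 19 called there: Orc1, Mcm2, Mcm3, Mcm5, Rfc5, Rpa2, Chaf1b, Tipin, Ung and Exo1. Over the 13571 genes tested in both, 70.4% of those called lower in stimulated cells were called lower in unstimulated cells, which is 359 of the 2239 called lower there. Without the block Orc6 was called in stimulated cells alone, and 20 members were called in neither state. In the blocked fit 22 members, Orc6 among them, were called in both states and 7 in neither: Gins2, Gins3, Gins4, Prim2, Pola2, Rfc2 and Fen1. That fit called 39.8% of all genes in stimulated and 47.8% in unstimulated cells, and its overlap over all genes was not computed. The sign of the PGE2 difference was the same in both states for 39 of 40 members, with Prim2 the exception (0.07 in unstimulated and −0.10 in stimulated cells), and for 78.5% of all genes. Whether the size of the PGE2 difference depended on beads was tested with the interaction term over all 16 samples. No member was called (edgeR, DESeq2 and the blocked fit each gave 0). Over all genes edgeR called 0.749% of 15096, DESeq2 234 of 28205 and the blocked fit 408 of 15096. The unadjusted p of edgeR was below 0.05 for 1 member, Ung, and for 1415 of the 15096 genes. Ung, with the lowest p, had a difference of 0.54 (SE 0.24, adjusted p = 0.486), from PGE2 values of −0.91 with beads and −1.43 without. Orc6 came next with −0.21 (SE 0.142, adjusted p = 0.778). Its levels were 47.5, 52.0, 49.8 and 60.1 CPM in unstimulated control, 39.0, 41.2, 45.0 and 53.1 in unstimulated PGE2, 47.8, 46.5, 47.3 and 54.4 in stimulated control and 32.8, 33.7, 37.9 and 40.02 in stimulated PGE2. The PGE2 and control ranges overlapped without beads and were apart with them.

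Restimulation with beads lowered most of the replication genes relative to the other genes of the same samples. Scaled counts do not measure transcript per cell, and a change in that was not tested. Comparing stimulated with unstimulated cells in the absence of PGE2, 29 of 40 members fell and 4 rose within 4 h. All 6 primase and polymerase genes fell, as did 5 of 6 helicase activators, 4 of 6 MCM subunits, all 3 genes of chromatin assembly and methylation copying, and both subunits of the single-strand binding protein. The 4 that rose were Ung, Orc1, Tipin and Exo1. Of the 14205 genes tested, 34.8% were lower and 31.7% higher, against 72.5% of members lower and 4 of 40 higher (edgeR). The median log2 fold change was −0.44 over members and −0.03 over all genes. Under upper-quartile scaling, which moves the median of all genes to −0.13 here and to −0.13 with PGE2, the member median was −0.53 and −0.54, and no called member changed direction. Members with a change of at least 2-fold numbered 2, where 23.2% of all genes passed it. Without replicate 4 of each group 29 were lower and 4 higher, where 9228 of 14205 genes were called.

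Clspn encodes claspin, which carries the checkpoint signal at stalled forks (chr4:126556935-126593903, plus strand). It stood at 115, 119, 114 and 127 CPM in unstimulated control samples and at 34.5, 38.0, 48.0 and 62.9 CPM in stimulated control samples. All stimulated samples were lower by a wide margin, though they also spread widely, and the log2 fold change was −1.39 (SE 0.143, adjusted p = 2.47e-06, edgeR). Rpa1, the large subunit that coats single-stranded DNA, stood at 322, 283, 290 and 274 CPM without beads and at 149, 138, 156 and 166 CPM with them. Levels fell to 51.5% in the fit, with no overlap (log2 fold change −0.96, SE 0.075, adjusted p = 2.59e-07). Cdc6 stood at 59.1, 59.3, 59.5 and 67.8 CPM without beads and at 29.1, 33.3, 37.0 and 42.0 CPM with them. The ranges were apart, with a log2 fold change of −0.82 (SE 0.098, adjusted p = 1.01e-05). Lig1 stood at 171, 178, 191 and 214 CPM without beads and at 99.7, 102, 119 and 148 CPM with them. The highest stimulated sample, replicate 4, remained below the lowest unstimulated sample, and the log2 fold change was −0.70 (SE 0.115, adjusted p = 0.000136).

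The members that rose had their own course. Ung went from between 21.3 and 25.4 CPM in unstimulated control samples, given above, to between 43.0 and 67.9 CPM in stimulated control samples, without overlap (log2 fold change 1.24, SE 0.137, adjusted p = 4.77e-06, edgeR). Orc1 went from between 13.6 and 18.0 CPM to between 24.3 and 28.8 CPM, also without overlap (0.73, SE 0.101, adjusted p = 3.64e-05). Tipin stood at 71.4, 67.8, 68.7 and 79.7 CPM without beads and at 95.7, 85.7, 88.8 and 94.5 CPM with them. Each stimulated sample was above each unstimulated one, and the log2 fold change was 0.33 (SE 0.073, adjusted p = 0.00143). Exo1 stood at 36.1, 34.6, 33.4 and 39.8 CPM with beads against the 26.5 to 35.1 CPM without. Its groups overlapped, its log2 fold change was 0.25 (SE 0.095, adjusted p = 0.0342), and the call was lost in 6 of 8 fits that left out 1 library, namely unstimulated control replicate 1, 2 or 3 or stimulated control replicate 1, 2 or 4 (adjusted p between 0.0516 and 0.0978), and under upper-quartile scaling (adjusted p = 0.204).

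The other members that fell lay between −0.70 and −0.18 on the log2 scale. The deepest among them were Gmnn, the gene of geminin, (−0.70), Uhrf1 (−0.66), Mcm7 (−0.65), Gins3 (−0.64), Gins4 (−0.63), Dtl (−0.61) and Chaf1a (−0.60), and the shallowest were Mcm6 (−0.21) and Rfc5 (−0.18). Chaf1a shares 52.5% of its exon bases with the opposite-strand gene Ubxn6, so its counts may hold reads of Ubxn6. The 7 members without a call were Fen1 (0.13), Mcm2 (0.11), Mcm3 (−0.09), Orc6 (−0.11), Pcna (−0.15), Mcm10 (−0.18) and Rfc3 (−0.19). The blocked fit also called Mcm10, Pcna and Rfc3, all lower, and it called 10267 of the 14205 genes tested.

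**Figure D3:**
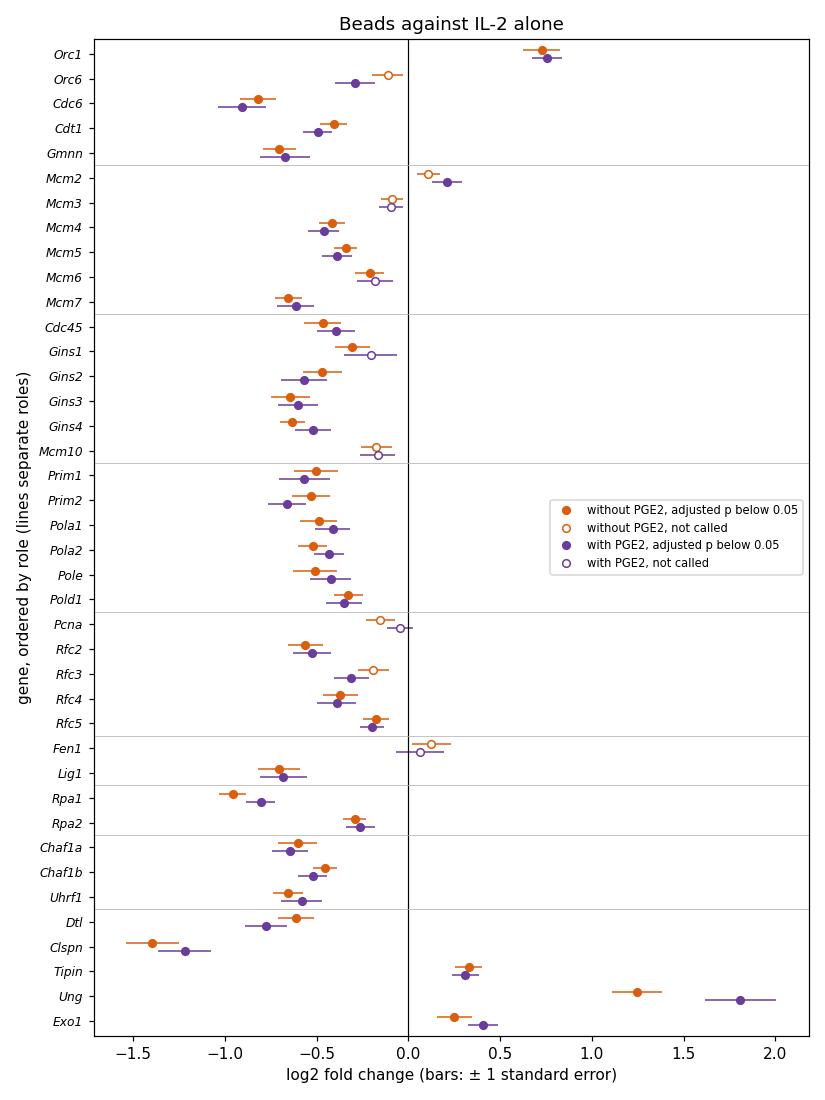
Log2 fold change of cells with beads over cells on IL-2 alone for each member (vertical axis, by role), without PGE2 (orange) and with PGE2 (purple), with bars of 1 standard error; filled points have adjusted p below 0.05. Most members lie left of 0 down to Clspn (−1.39 and −1.22), and Ung, Orc1, Tipin and Exo1 lie to the right, Ung at 1.24 and 1.81.

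With PGE2 present, 29 members fell under beads and 5 rose, the 5 being Ung, Orc1, Exo1, Tipin and Mcm2. Of the 14507 genes tested, 31.7% were lower and 32.5% higher, against 72.5% and 12.5% of members (edgeR), and the member median was −0.42 against 0.00 for all genes. Members with at least a 2-fold change numbered 2, where 22.1% of all genes passed it. Without replicate 4 of each group 28 were lower and 5 higher, where 9116 of 14552 genes were called. Clspn stood at 113, 100, 96.0 and 106 CPM in unstimulated PGE2 samples and at 33.3, 37.0, 48.7 and 57.9 CPM in stimulated PGE2 samples. The groups were again far apart, with a log2 fold change of −1.22 (SE 0.144, adjusted p = 3.03e-05). Cdc6 stood at 47.4, 46.8, 43.7 and 53.1 CPM without beads and at 20.4, 22.1, 25.9 and 32.9 CPM with them. Its ranges did not meet (log2 fold change −0.91, SE 0.131, adjusted p = 0.000124). Rpa1 stood at 291, 246, 241 and 241 CPM without beads and at 134, 136, 144 and 163 CPM with them. Its samples with beads were all lower (−0.81, SE 0.081, adjusted p = 1.02e-05). Dtl, the substrate receptor through which CDT1 is degraded at PCNA, stood at 73.0, 66.9, 66.5 and 79.3 CPM without beads and at 35.5, 35.4, 43.8 and 50.9 CPM with them. It was the fourth deepest fall (−0.77, SE 0.115, adjusted p = 0.000145), again without overlap.

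Ung rose from between 7.52 and 10.03 CPM in unstimulated PGE2 samples to between 22.0 and 39.2 CPM in stimulated PGE2 samples (log2 fold change 1.81, SE 0.194, adjusted p = 1.55e-05, edgeR). Orc1 rose from between 10.5 and 11.7 to between 18.0 and 19.3 CPM (0.75, SE 0.082, adjusted p = 1.77e-05). Both gaps exceeded the spread within groups. Exo1 stood at 28.5, 29.0, 25.0 and 29.9 CPM with beads, above its 20.5 to 22.5 CPM without them (0.41, SE 0.083, adjusted p = 0.00128). Tipin stood at 52.9, 50.4, 53.8 and 57.3 CPM without beads and at 69.2, 66.4, 64.8 and 62.5 CPM with them. The Tipin groups were apart too (0.31, SE 0.074, adjusted p = 0.00355). Mcm2, at 0.21 (SE 0.083, adjusted p = 0.0428), had overlapping groups.

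Of the members called lower with beads, 27 were called in both PGE2 states (93.1% of each list), where over all genes the shares were 83.9% of those called lower without PGE2 and 91.9% of those called lower with it. Orc1, Tipin, Ung and Exo1 were called higher in both. Mcm3, Mcm10, Pcna and Fen1 were called in neither. The stimulation and PGE2 comparisons share samples, so their values are only set beside each other. Ung, Orc1, Tipin and Exo1 had positive values with beads and negative values after PGE2 in each state. The same held for Mcm2 and Fen1, and no other member had a positive value with beads in either PGE2 state. After PGE2, 37 of 40 members in stimulated and 36 in unstimulated cells had negative values. Clspn, Rpa1 and Cdc6, with the deepest falls under beads in both PGE2 states, had PGE2 values of −0.05, −0.07 and −0.47 in stimulated and −0.18, −0.18 and −0.34 in unstimulated cells.

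**Figure D4:**
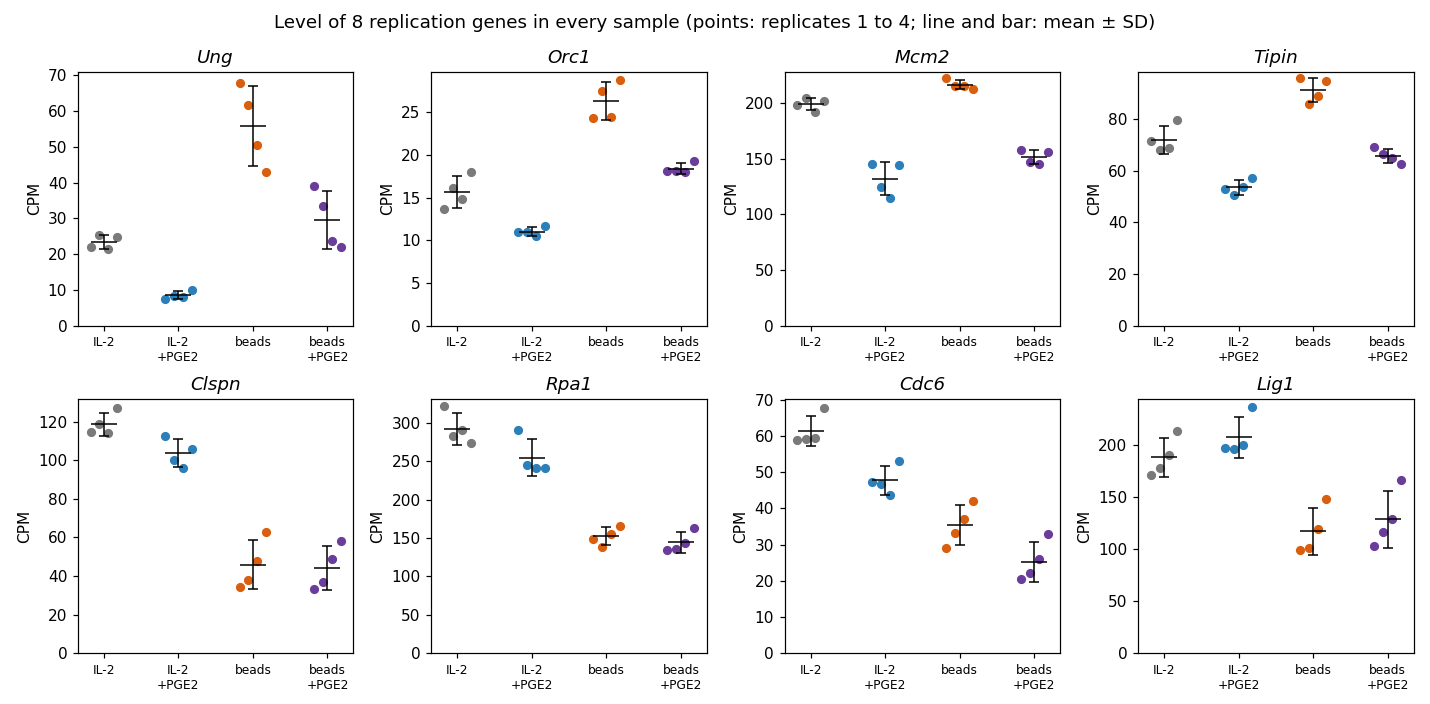
CPM (vertical axis, from 0) of 8 members in the 4 groups; points are replicates 1 to 4 from left to right, and the line with bar is the mean ± SD of 4. Ung ran from 8.54 ± 1.06 CPM in unstimulated PGE2 to 55.8 ± 11.2 CPM in stimulated control, and the lower row shows Clspn, Rpa1, Cdc6 and Lig1 lower in both groups with beads.

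Markers of G2 and mitosis moved with the bead comparison. The 12 markers, none at 0, summed to between 2406 and 2597 CPM in unstimulated control and between 1395 and 1762 CPM in stimulated control samples, and to between 2336 and 2600 CPM in unstimulated PGE2 and between 1468 and 1922 CPM in stimulated PGE2 samples. Their part in the falls of the replication genes under beads was not tested. Between PGE2 and control samples the ranges of this sum overlapped in both states, while the summed level of the 40 members lay between 2941 and 3699 CPM in stimulated PGE2 against 3614 to 4196 CPM in stimulated control, which overlap, and between 3956 and 4470 CPM in unstimulated PGE2 against 4749 to 5154 CPM in unstimulated control, which do not.

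Genes that work with the 40 members, 95 in 6 lists, were fixed with earlier results known. PGE2 in stimulated cells lowered 10 of the 95 and raised none (median −0.14), against the 3.80% of all genes lower. The deepest were Hells, a chromatin remodeller of DNA methylation (−0.59, SE 0.092, adjusted p = 0.00382, edgeR), E2f1, which drives S-phase transcription (−0.56, SE 0.119, adjusted p = 0.0174), and Cdca7, a partner of Hells (−0.52, SE 0.126, adjusted p = 0.0296). In the blocked fit 46 of the 95 were lower and 10 higher, where 39.8% of all genes were called. The number called was 4 without stimulated PGE2 replicate 3, 6 without stimulated control replicate 1 and 5 without stimulated control replicate 2 or 3. Over all genes, 1370 were called with every library and 630 without stimulated PGE2 replicate 3. Without stimulated control replicate 1, 2 or 3 the numbers over all genes were 760, 630 and 792. The calls of E2f1 and Cdca7 were lost in 3 and 5 of the 8 fits that left out 1 library; E2f1 lost it without stimulated control replicate 2 or 3 or stimulated PGE2 replicate 3, and Cdca7 without stimulated control replicate 1, 2 or 3 or stimulated PGE2 replicate 3 or 4.

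In unstimulated cells PGE2 lowered 35 of the 95 and raised 3, against 15.5% and 12.9% of all genes. In the blocked fit 51 were lower and 9 higher, where 47.8% of all genes were called. The lists with the largest shares were histone supply and chromatin copying (8 of 12 lower) and deoxynucleotide supply (6 of 10 lower), and 3 of 16 genes of origin licensing and firing were lower. Dctd, a deaminase that feeds thymidylate synthesis, was lowest at −2.06 (SE 0.215, adjusted p = 5.03e-05, edgeR), followed by Cdca7 (−1.16, SE 0.078, adjusted p = 4.74e-06) and Tfdp1, a partner of E2F factors (−0.73, SE 0.064, adjusted p = 1.73e-05). The 3 that rose were Tfdp2 (0.56, SE 0.090, adjusted p = 0.000854), Donson (0.39, SE 0.050, adjusted p = 0.000194) and Brca1 (0.22, SE 0.069, adjusted p = 0.0328), of which Brca1 lost its call in 6 of 8 fits that left out 1 library (unstimulated control replicate 1, 2 or 3, or unstimulated PGE2 replicate 1, 3 or 4) and in 1 fit of all 16 samples.

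With beads 57 of the 95 genes fell and 27 rose without PGE2, against 34.8% and 31.7% of all genes. With PGE2 54 fell and 29 rose, against 31.7% and 32.5% of all genes, so the rises were near the share of all genes in both. Rbl2, a pocket protein that restrains E2F targets, fell by 2.04 (SE 0.143) without PGE2 and by 1.61 (SE 0.140) with PGE2. Tfdp2 fell by 1.78 (SE 0.163) and 1.64 (SE 0.121), and Dck, the deoxycytidine kinase of nucleotide salvage, fell by 1.77 (SE 0.093) and 1.61 (SE 0.131). Those that rose most were Dctd (1.73, SE 0.107, and 3.60, SE 0.234), E2f5 (1.69, SE 0.119, and 1.79, SE 0.194) and Cdca7 (1.20, SE 0.089, and 1.88, SE 0.139). All 12 values had adjusted p of at most 1.63e-05 (edgeR). The list of E2F factors, S-phase cyclins and kinases had 12 lower and 6 higher of 20 without PGE2, and 13 lower and 6 higher with it.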

How the data were processed

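Poly(A) RNA was sequenced from 16 samples, 4 in each group named above. Per the labels, the authors aligned reads with HISAT2 2.0.5 to GRCm38 and counted them per gene with featureCounts 1.5.0-p3; DESeq2 1.20.0 is also named there. The use of strand is not given in the sources used here. The deposited counts are whole reads per gene. The deposited FPKM values equal count over length and total, times 1 factor per sample (0.878 to 1.11).

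From the counts, edgeR 4.0.16 (R 4.3.3) was run with filterByExpr (minimum count 10), TMM factors and the quasi-likelihood F-test on the 8 samples of each comparison, or on all 16 for the interaction, with Benjamini-Hochberg adjustment over all genes tested and a threshold of 0.05. Standard errors are the log2 fold change over the root of F. Plotted and printed CPM use TMM factors over 16 samples. Depth was 22678254 to 42950763 counts per sample. The scripts were tested on simulated data. Alternatives were DESeq2 1.42.0, RLE and upper-quartile factors, no filter, a replicate block, limma 3.58.1 with a trend on log2(FPKM + 1) or log2(FPKM + 0.1) for genes with a mean of at least 1 FPKM or without that filter, 1 fit of all 16 samples, a 2-fold threshold and leaving out each library.

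Replicate numbers come from the labels, which state no shared origin. Deviations of same-numbered samples from their group means correlated at over 0.1 in all 4 pairs for PGE2 in stimulated cells (0.190 to 0.423), PGE2 in unstimulated cells (0.137 to 0.444) and stimulation without PGE2 (0.112 to 0.359), so the numbers were read as pairing there. With PGE2, 2 of 4 pairs passed. Samples of unequal number in different groups correlated at between −0.385 and 0.2505 (median −0.0817), so some of them also passed 0.1. Of the 16 samples, 14 correlated best with a sample of their own number.

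Members and lists were chosen with earlier results of these data known. Values in every sample are given for called members with the largest changes (up to 4 a direction in each comparison) or, where none was called, the 2 of lowest p; up to 3 pathway genes a direction are named. Members without a RefSeq window (10 of 40) have no sequence result. GENCODE M21 exons were used to find overlapping genes: 13 members share exon bases with another gene, 7 of them over 10%.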

Additional observations from a re-analysis of the deposited data

Results flagged for a closer look

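Dixon's test at its 95% critical value for 4 samples was applied to the CPM of the members given in every sample and to the median deviation of all members, 52 groups in all, and marked 5. Chance marks about 1 in 20 groups. In 4 of them replicate 4 was the high sample: Orc1 in stimulated PGE2 (19.3 CPM against 18.0 to 18.1 in the others), Orc6 in stimulated control (54.4 CPM against 46.5 to 47.8), Cdc6 in unstimulated control (67.8 CPM against 59.1 to 59.5) and Lig1 in unstimulated PGE2 (237 CPM against 196 to 200). In the other, Rpa1 in unstimulated PGE2, replicate 1 was high (291 CPM against 241 to 246).

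Dctd, a pathway gene outside the 40 members, differed in its PGE2 response between the states by the interaction test: the difference of the log2 fold changes was 1.84 (SE 0.250, adjusted p = 0.00336, edgeR), and the call was lost with limma on log2(FPKM + 1) without a filter. Its PGE2 value was −2.06 (SE 0.215) in unstimulated cells and −0.24 (SE 0.124, adjusted p = 0.247) in stimulated cells. It stood at 9.44, 12.4, 9.52 and 11.7 CPM in unstimulated control samples and at 2.11, 2.06, 2.01 and 3.89 CPM in unstimulated PGE2 samples. With beads it stood at 36.3, 39.0, 35.0 and 33.7 CPM in control samples and at 34.4, 34.6, 29.7 and 22.9 CPM in PGE2 samples, where the ranges overlap.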

How the results depend on the processing

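The member medians moved by less than 1 pooled SD of the member median between replicates under every alternative run. That is a wide limit for PGE2 in stimulated cells. There the SD was 0.159 and the median −0.22, and the median ran from −0.32 to −0.16 with 1 library left out. For PGE2 in stimulated cells, 11 members called became 17 with DESeq2, 17 in 1 fit of all 16 samples, 27 with the replicate block, 6 with log2(FPKM + 1) without a filter, 0 at 2-fold and 6 to 15 with 1 library left out, the low end without stimulated control replicate 1 or 2 or stimulated PGE2 replicate 3. Over all genes, 1370 of 13922 called became 2066 of 25904 with DESeq2, 2161 of 15096 in the fit of all 16 samples and 5544 with the block. They became 679 of 25904 with log2(FPKM + 1) without a filter, 243 at 2-fold and 630 to 1854 with 1 library left out. For PGE2 in unstimulated cells, 19 became 17 with DESeq2, RLE or upper-quartile factors (Dtl and Clspn lost each time), 1 at 2-fold and 12 to 20 with 1 library left out. Over all genes, 4122 of 14505 called became 4412 of 26421 with DESeq2, 4101 with RLE and 4174 with upper-quartile factors. They became 490 at 2-fold and 3154 to 4133 with 1 library left out. At 2-fold, stimulation kept 2 without and 2 with PGE2, where 23.2% and 22.1% of all genes passed. Every member called without the block stayed called with it in all 5 comparisons. The cause of these shifts was not tested. The replicate block in stimulation with PGE2 and in the interaction, where not all pairs passed, gave 35 and 0 members. Over all genes it called 9790 of 14507 and 408 of 15096. Of the single genes named, no value reversed; 10 of 429 alternative values that kept all libraries (Ung and Cdca7 for PGE2 in stimulated cells, Brca1 for PGE2 in unstimulated cells, Exo1 for stimulation without PGE2 and Dctd for the interaction), and 23 of 408 that left out 1, lost the call. Without replicate 4 of each group, Cdca7 for PGE2 in stimulated cells lost it. Depth limits Fen1 most, with 155 counts in 1 library.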

Other observations

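Fen1, the flap nuclease that works beside Lig1 on Okazaki fragments, was the lowest member per length in unstimulated control cells (3.20 FPKM), while Lig1 stood at 42.0 FPKM. Of the Fen1 exon bases, 78.8% lie opposite exons of Gm10143 and 5.37% opposite exons of Tmem258. Gins2 shares 67.3% of its exon bases with Gse1 on the opposite strand, and Rfc2, Rfc4 and Rfc5 share 15.1%, 12.7% and 10.7% with Lat2, Eif4a2 and Wsb2. Whether reads in these overlaps were dropped or counted for both genes was not tested.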
